A study of Anguilla anguilla with 15 samples.

Results

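The contigs described here are the 199 of 992 (20.1%) on a gonad microarray that lay clearly below a pool of wild eel gonads in both sampled sites. They were chosen by their level alone: the mean log2 ratio of gonad to pool was -1 or less over the Certes arrays and also -1 or less over the Gironde arrays, empty cells left out. The gonads came from female European eels (Anguilla anguilla), 8 from Certes, a site described as clean, and 7 from Gironde, a site described as contaminated. No strain, age, maturation stage or treatment is given for single animals, and the series title places the animals in artificial gonad maturation. Every sample was labelled with Cy3 and hybridised beside the same Cy5-labelled pool, made from gonads of 30 wild eels of Certes. All arrays therefore share the pool and the dye orientation, and dyes were swapped on none of them. A contig is an assembled transcript sequence. The IDs are paired with no gene name in the files, and 0 of the 992 occur in the eel gene table, which holds 31451 genes, so each member is given by its ID and no sequence is shown.

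The table states neither the direction nor the base of the deposited ratios. A reading as log2 of sample over pool was used here, which is likely and not certain. Its basis is that contigs with low values were more often bright in the pool than contigs with high values, as given further on. Read the other way, every value would change sign and the members would be the contigs above the pool. In the reading used, a value of -1 means that the pool gave 2 times the signal of the gonad. Every array's median had been set to 0, so a level below the pool is one relative to the median contig of the array. Eels leave for the ocean with immature gonads, and in captivity the females are brought to maturity by hormone treatment. During that process the ovary passes from small oocytes to large yolk-filled ones, each wrapped in follicle cells, so the makeup of ovarian RNA shifts strongly. In a whole gonad, fewer cells of a type and less transcript per cell cannot be told apart. A difference in maturation between the wild eels of the pool and the animals sampled, and a preference of either dye for a contig, cannot be told apart from the level itself.

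Most members lay moderately below the pool, and a short tail lay very far below it. The rule used these levels, so they are a description. The mean of the 2 site means had a median of -1.76 over the members, with quartiles of -2.45 and -1.40. Of the 199 members, 127 lay between -2 and -1, 35 between -3 and -2, 14 between -4 and -3, 15 between -6 and -4, 6 between -8 and -6, and 2 below -8. The threshold cut through a continuous slope of values. Just inside it, contig_14213, contig_13098 and contig_3129 had Certes means of -1.00014, -1.002 and -1.009 and Gironde means of -1.20, -1.22 and -1.29. Just outside it, contig_2400, contig_25419 and contig_16785 had Certes means of -0.999, -0.990 and -0.986 and Gironde means of -1.53, -1.38 and -1.24. With a threshold of -1.5 the rule found 110 contigs, and with -0.5 it found 311.

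**Figure D1:**
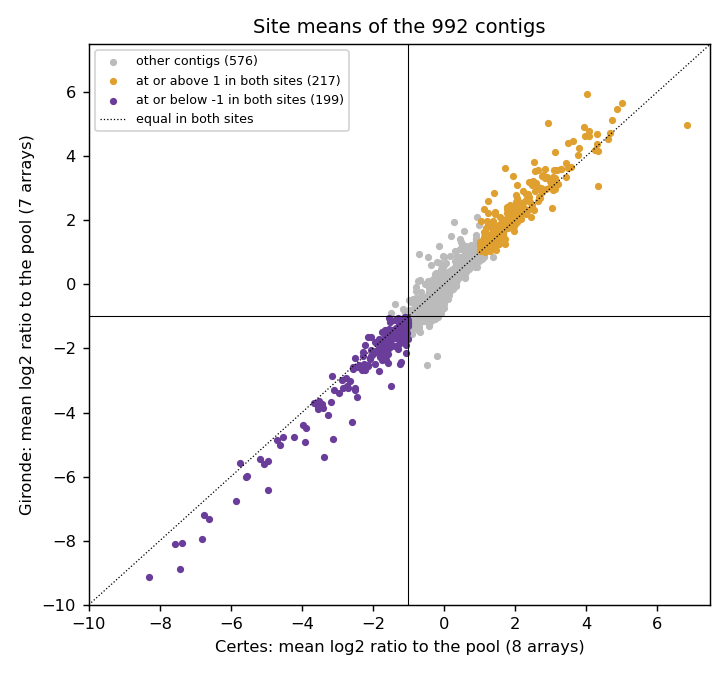
Each point is 1 of 992 contigs, at its mean log2 ratio to the pool over 8 Certes arrays (horizontal axis) and over 7 Gironde arrays (vertical axis). The 199 contigs at or below -1 in both sites form the lower left arm, which thins out below -4 and there lies mostly under the dotted line of equal values (22 of 23 contigs at -4 or lower). With arrays scaled to an equal SD (not drawn), most of the 23 lay above it, among them 5 of the lowest 8. contig_15859 and contig_16488 were others above it (Gironde minus Certes 0.46 and 0.43). A smaller part stayed below it, such as contig_38890, contig_38113 and contig_31845 (-0.41, -0.67 and -1.40).

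The lowest members had ratios very far below the pool, and the size of such ratios is uncertain, as given further on. The first is contig_9635, which on the Certes arrays ran from -8.90 through a median of -8.41 to -7.27, and on the Gironde arrays from -9.90 through -9.22 to -8.16. Its mean level of -8.72, taken as it stands, would be a 423-fold difference from the pool, and it was the lowest member on 10 of the 15 arrays. contig_35629 ran from -8.55 (median -7.26) to -6.35 in Certes and from -10.89 (median -8.43) to -8.06 on the 6 Gironde arrays that gave it a value. The -10.89, on Gironde 2, was the lowest value of any contig on any array. Next came contig_2266 with a mean level of -7.83, and its arrays lay within -8.68 and -6.69.

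contig_9866, at a mean level of -7.73, varied more than its neighbours, from -9.70 to -6.30 in Certes and from -9.72 to -6.87 in Gironde. In contig_20173 the Certes array Certes 8 stood at -8.73, as low as the lowest Gironde array (-8.71), while the other Certes arrays reached up to -5.59. contig_16406, contig_20211 and contig_20175 closed the lowest 8, with mean levels of -6.98, -6.98 and -6.30. In each of these 8 the sites overlapped.

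The pool's own signal shows what the ratios stand on. It was taken from 1 slide, slide 1 of the scanner table, as the median foreground of a contig's 3 spots in scanner units. This foreground had a median of 282 units across the members, with quartiles of 209.5 and 625.5, against 246.5 across all contigs. It was 263 across the 576 contigs in neither set and 211 across the 217 contigs at or above 1 in both sites. In the brightest 25% of all contigs, above 355.75 units, were 77 members (38.7%), 165 (28.6%) of those 576 contigs and 6 (2.76%) of those 217 contigs. The pool is the denominator of the ratio, so this difference is partly built in by the rule. At the other end, 41 members (20.6%) lay in the dimmest 25%, up to 201.375 units, as did 21.2% of the 576 and 39.2% of the 217. With 1 slide read, a single stray slide value can put a contig in the wrong place.

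For the 23 members at a level of -4 or lower the pool foreground was between 231 and 5615 units. Among the lowest 8 it was 3738.5 for contig_9635, 5615 for contig_2266 and 468 for contig_35629, the dimmest of them, so these 8 all lay in the brightest 25%. The brightest members in the pool lay at moderate levels. contig_18434 had a foreground of 52021.5 at a mean level of -2.28, contig_18206 had 16603 at -1.66, and contig_11347 had 15284 at -1.99. Pool spots of contig_18434 and contig_18206 came near the scanner's upper limit on slides that were looked at and whose values are not given here. The levels of these contigs are therefore uncertain and they cannot be ranked against the lowest members. The dimmest were contig_9476 at 136.5, contig_25243 at 165.5 and contig_17636 at 166 units, with mean levels of -3.01, -2.33 and -1.60. No value of signal over background is given here for either channel. The size of a very low ratio is therefore uncertain and depends on how the authors treated background.

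On single arrays most member values lay below the pool, which is largely built in, since the rule used these same values. Of 2950 member values, 22 lay above 0, and they came from 18 members. At or below -1 on each array that gave a value were 85 of the 199. Per array, between 74.2% (Certes 2) and 94.4% (Gironde 2) of the members with a value were at or below -1. The largest exception was contig_19029, at 2.75 on Gironde 6 while its Gironde median was -1.45 and its Certes arrays lay between -2.19 and -0.80. contig_30907 stood at 1.14 on Gironde 3 and contig_24138 at 1.06 on Gironde 4. These 3 contigs, which were chosen after their values were seen, were dimmer in the pool than the median contig, at 210, 197 and 190 units.

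**Figure D2:**
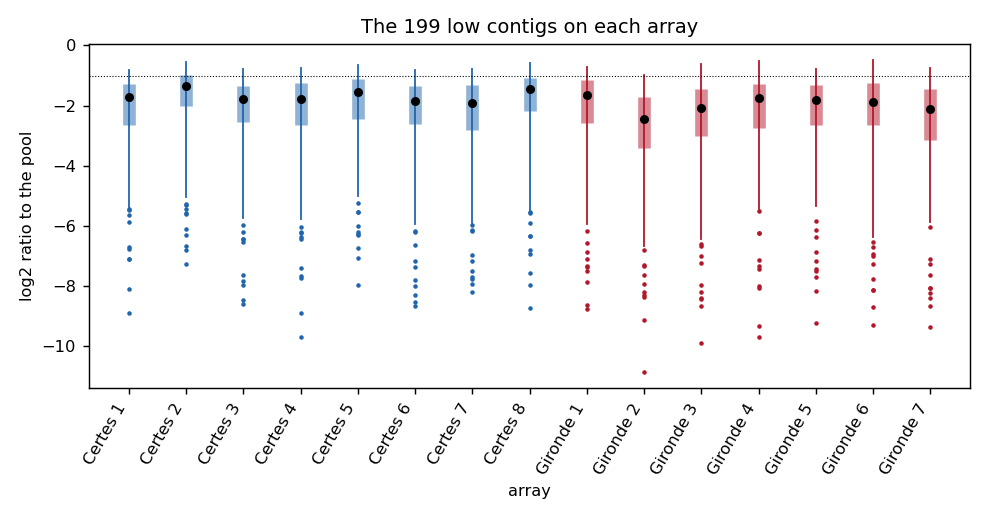
Log2 ratio to the pool of the 199 low contigs on each of the 15 arrays (8 Certes in blue, 7 Gironde in red). The black dot is the median, the thick bar the quartiles, the thin line the 5th to 95th percentile, the small points lie below the 5th percentile and the dotted line marks -1; medians run from -1.90 to -1.35 in Certes and from -2.46 to -1.65 in Gironde.

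The gonads differed among themselves by about as much in these contigs as in those above the pool. The within-site SD, pooled over both sites, had a median of 0.54 over the members, with quartiles of 0.42 and 0.72. It was 0.55 over the 217 contigs above the pool and 0.41 over the 576 contigs in neither set. From its lowest to its highest array a member spanned a median of 1.90 on the log2 scale, and between 0.60 and 6.87. Spread was largest where the pool was dimmest: the median within-site SD was 0.73 over the 41 members in the dimmest 25% of contigs, 0.49 over the 81 in the middle and 0.51 over the 77 in the brightest 25%. The part of weak pool signal in the spread was not tested.

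The steadiest member was contig_10339, which ran from -1.60 (median -1.32) to -1.15 in Certes and from -1.75 (median -1.43) to -1.15 in Gironde, a within-site SD of 0.19 at a pool foreground of 2778 units. contig_31505 was tighter still among the Certes gonads, with an SD of 0.08 there and 0.29 in Gironde, where Gironde 6 reached -2.18. contig_7225 and contig_30553 followed with within-site SDs of 0.25 and 0.26. These 4 contigs lay between -1.54 and -1.12, near the threshold of the rule, and had a pool foreground of 291 to 2778 units, none of them in the dimmest 25%.

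The most variable members were read against a dim pool. contig_9476, with a within-site SD of 2.31, had a value on 7 Certes and 3 Gironde arrays. Its Certes values ran from -7.99 (median -1.55) to -1.12, so that 2 low arrays, Certes 3 at -7.99 and Certes 4 at -5.41, carried its spread, and it had the largest excess of Certes over Gironde SD (2.63 against 0.71). contig_4710 showed the largest excess the other way, with an SD of 2.44 in Gironde and 0.80 in Certes. On its Gironde arrays it lay above the pool on Gironde 6 and 7 (0.77 and 0.88) and far below it on Gironde 4 (-5.31). contig_25243 and contig_19158 had within-site SDs of 1.66 and 1.42. In contig_19158 the Gironde arrays spread from -8.24 to -2.41, and the Certes arrays from -4.02 to -2.15. The pool foreground of these 4 was 136.5 to 188 units, in each case within the dimmest 25% of contigs.

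The Gironde gonads were the more variable in 119 of the 199 members (59.8%), where 63.5% of all 992 contigs showed the same. The share among members lay near that background. The median SD was 0.48 over members in Certes and 0.56 in Gironde, a ratio of 1.17, and over all contigs it was 0.43 and 0.48, a ratio of 1.12. Empty cells numbered 35 in 18 members, 28 of them on Gironde arrays and 7 on Certes arrays. Over all contigs they numbered 121, with 107 on Gironde arrays and 14 on Certes arrays. Of the 35 in members, 28 fell on those in the dimmest 25% of the pool. None fell on the middle (0 cells) and 7 on the brightest 25%, of which 5 belonged to contig_9226. That contig had a foreground of 2199 units on slide 1, where its 3 spots differed by a coefficient of variation of 20.4%. It was near background in the pool on slides that were looked at and whose values are not given here. Its place among the bright members may therefore be a stray value of slide 1. Without it the brightest 25% held 76 members, 2 empty cells and 15 of the members at an unadjusted p of 0.05 in limma. With 5 empty cells each, contig_9476 and contig_9226 had the most, followed by contig_25243 and contig_11934 with 3, and by contig_39488, contig_4710, contig_16903, contig_17636 and contig_21730 with 2.

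Members varied together from gonad to gonad, loosely as a whole and very tightly in a few groups. Pearson correlations were taken over the 15 arrays on the deviations from each site's mean, for the 181 members with a value on all arrays, which gives 16290 pairs. They are a description, since contigs on 1 array share its labelling, its scale and the pool. The median correlation was 0.14 among members, 0.14 among the contigs above the pool and -0.01 among the contigs in neither set. Under equal array SDs the median among members was 0.01, and under equal median absolute deviations it was 0.0776, so its size depended on how array widths were treated.

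A few pairs stood out from this, with 27 of 16290 (0.166%) at a correlation of at least 0.9, against 291 of 423660 pairs (0.0687%) among all complete contigs. Within the other sets the share was 0.107% (161 of 150426) among contigs in neither set and 0.0165% (3 of 18145) among those above the pool. Linked through these pairs were 21 members in 5 groups of 10, 4, 3, 2 and 2 contigs, which were drawn up after the correlations were seen. The highest correlations joined contig_22142 with contig_8217 and contig_14467 with contig_8217, the group of 3.

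In this group of 3 the arrays of each site fell into separate sets of values, so that no correlation is given for it and a graded relation cannot be tested. Averaged over the 3 contigs, Gironde 2, 3, 5 and 7 lay at -2.57, -2.41, -2.37 and -2.64. Gironde 1, 4 and 6 lay at -0.99, -1.20 and -1.04, more than 1 higher and with no array in between. In Certes, arrays 1, 2, 5 and 6 lay at -1.91, -1.88, -2.03 and -1.97, and arrays 3, 4, 7 and 8 at -1.38, -1.27, -1.15 and -1.29. The pool foreground of these contigs was 2032 to 6828.5 units. No stage or other label of single animals goes with these sets, and they were seen in the measured values, so no comparison between them was made.

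Running opposite to them was contig_31893, another member, noticed because its correlation with contig_14467 was the most negative among all member pairs. Its pool foreground was 339 units. It lay at -2.60 on Gironde 6, -2.16 on Gironde 4 and -1.68 on Gironde 1, below the other 4 Gironde arrays at -1.03 to -0.66. In Certes it lay at -1.82 to -1.51 on arrays 3, 4, 7 and 8 and at -1.24 to -1.09 on arrays 1, 2, 5 and 6. The arrays on which the group of 3 was high were thus those on which contig_31893 was low, in both sites, although the site means of contig_31893 were nearly equal (-1.42 in Gironde and -1.41 in Certes).

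The largest linked group held 10 contigs, among them contig_30695, contig_3237, contig_37808, contig_21930 and contig_18206, with pool foregrounds of 635 to 16603 units. Its closest pair was contig_30695 and contig_3237 (r = 0.967, rho 0.979, and 0.991 without the 2 arrays farthest out), followed by contig_30695 and contig_37808 (r = 0.957, rho 0.954). Under equal array SDs these 2 correlations were 0.961 and 0.940, and under equal median absolute deviations 0.945 and 0.904. The group was chained rather than uniform, with correlations between its members from 0.589 upward. Its mean was lowest on Gironde 7 (-2.73), Gironde 2 (-2.69), Gironde 3 (-2.13) and Certes 6 (-2.0004), and highest on Certes 5 (-0.91). In Gironde the group of 10 was highest on the same arrays as the group of 3, but its array means were graded, without the wide gap seen there. Its mean was -1.04, -1.29 and -1.05 on Gironde 1, 4 and 6, and Gironde 5 lay at -1.81. In Certes it did not follow the sets of the group of 3, in which Certes 5 was among the low arrays. The widest arrays over all contigs included Gironde 2, 3 and 7 (SDs of 2.18, 2.08 and 2.01, against 1.52 to 1.94 on the others). The part of array width in the low values of the group of 10 and of the group of 3 was not tested. Among the very low members only contig_16133 and contig_19237 were linked (r = 0.917), at mean levels of -5.77 and -5.80.

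**Figure D3:**
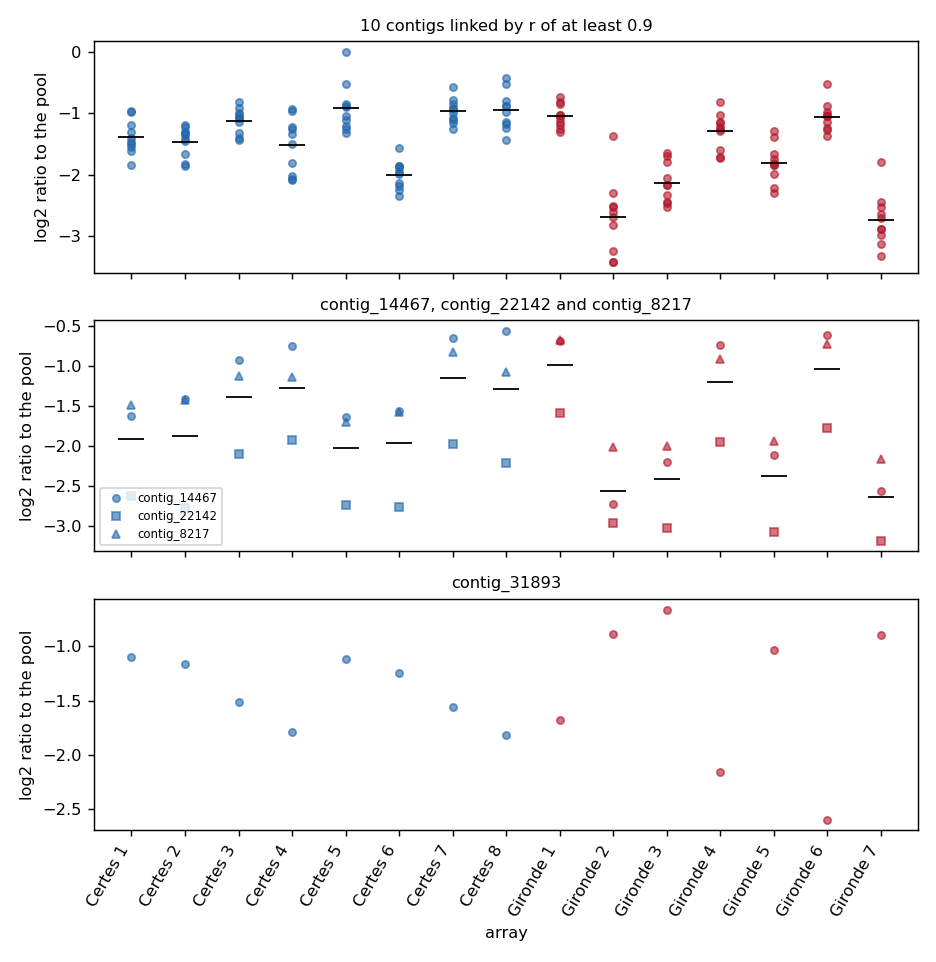
Log2 ratio to the pool (vertical axes) by array (horizontal axis; 8 Certes in blue, 7 Gironde in red) for the linked group of 10 contigs, for the group of 3 and for contig_31893; points are contigs and black bars are group means. In the middle panel the group means stand near -1 on Gironde 1, 4 and 6 and near -2.5 on Gironde 2, 3, 5 and 7. contig_31893 is low on the former arrays and higher on the latter.

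Between the sites, 1 member passed the adjusted threshold of 0.05 in limma, contig_31845, and it was the only one of all 992 contigs to do so (0.101% called). The fit compared 7 Gironde with 8 Certes arrays for all contigs at once, with Benjamini-Hochberg adjustment over the 992. contig_31845 ran from -4.10 (median -3.34) to -2.70 in Certes and from -7.33 (median -5.15) to -4.51 in Gironde. Every Gironde array lay below every Certes array, and Gironde 2 lay lowest. The difference was -1.996 ± 0.36 (SE; limma, adjusted p = 0.0388), and without 1 array it was -2.14 to -1.67. The call was lost in 10 of the 15 fits without 1 array, those lacking Certes 1, 2, 4, 5, 6 or 8 or lacking Gironde 1, 3, 5 or 6, with an adjusted p of up to 0.116 in limma. Scaling the arrays to an equal SD gave a difference of -1.403 (limma, adjusted p = 0.179). In the pool contig_31845 had a foreground of 231 units, below the median of all contigs.

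The next members by p had lower means in Gironde and did not pass. contig_30208 ran from -2.95 (median -2.39) to -1.93 in Certes and from -3.80 (median -3.19) to -3.003 in Gironde. Its sites did not overlap either, which was true of 2 members and of 0.202% of all contigs. Its difference of -0.80 ± 0.19 (SE; limma, adjusted p = 0.143) shrank to -0.39 under equal array SDs (limma, adjusted p = 0.658).

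contig_38890 ran from -4.63 (median -3.81) to -3.35 in Certes and from -5.88 (median -5.00) to -4.34 in Gironde, so that only the edges of the sites overlapped. Its difference was -1.004 ± 0.24 (SE; limma, adjusted p = 0.143), and -0.41 with the same scaling. contig_38113 differed by -1.46 ± 0.44 and contig_35629 by -1.44 ± 0.45 (SE; limma, adjusted p = 0.327 for both). With arrays scaled to an equal SD these differences were -0.67 and -0.33. The pool foregrounds of contig_30208, contig_38890 and contig_38113 were 237, 251 and 245 units, near the median of all contigs, and that of contig_35629 was 468. The size of these low ratios and of their site differences is uncertain in the same way as for contig_31845.

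**Figure D4:**
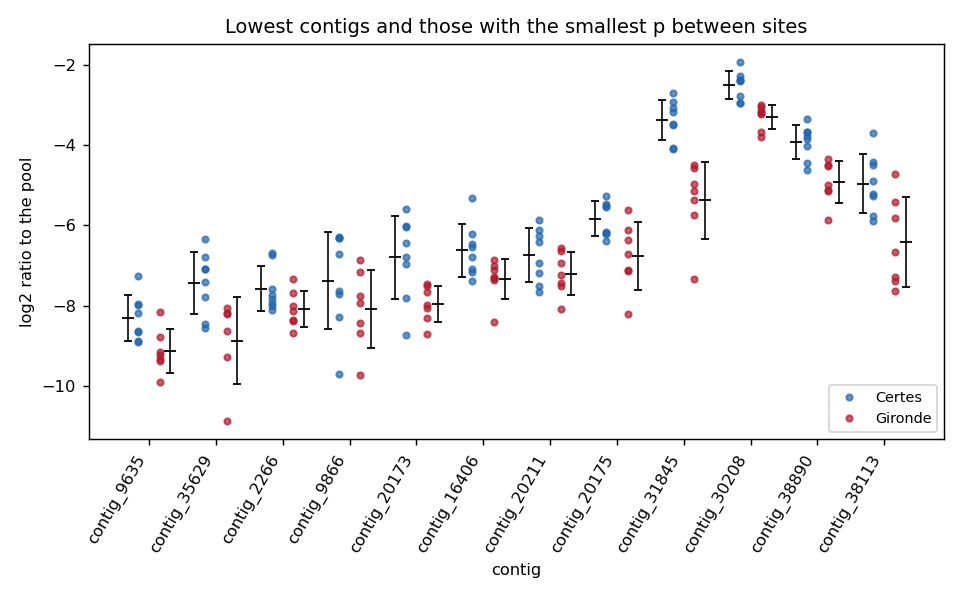
Log2 ratio to the pool on each array (points; 8 Certes in blue, 7 Gironde in red) for the 8 lowest contigs and the 5 members with the smallest p among those lower in Gironde; black bars are site means with SD. In contig_31845 and contig_30208 the sites do not overlap, and in the other contigs shown they do.

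At an unadjusted p of 0.05, 27 members (13.6%) passed, and each of them had the lower mean in Gironde, with arrays as deposited. Among all contigs 9.68% passed, 5.14% lower and 4.54% higher in Gironde. With arrays scaled to an equal SD the count was 12 members, 3 lower and 9 higher, and with an equal median absolute deviation it was 10, 4 lower and 6 higher. Neither the number of members passing nor the shared direction of those passing therefore held once the arrays had the same width. The members passing after scaling were not the same set as the 27. Of the 27, contig_9635 and contig_16406 turned higher in Gironde under equal SDs (0.33 and 0.21). Others stayed lower, such as contig_17613 and contig_19158 (-1.29 and -1.14), and how many turned is not given here. Shares of all contigs at this threshold are not given here for the scaled arrays. The count was 17 without Certes 5 and 17 without Gironde 2, and it ran up to 37 over the other fits without 1 array. The 27 differences were between 0.38 and 1.996 in size. Of these members, 16 lay in the brightest 25% of the pool (of 77 members there), 6 in the middle (of 81) and 5 in the dimmest 25% (of 41). The shares of all contigs passing in these classes are not given here. Lower in Gironde by more than 1 were 12 members, against 1.61% of all contigs, and none was higher by more than 1 (0 members), against 1.61% of all contigs. The planned scalings were applied to this count after the data were seen. With an equal SD or an equal median absolute deviation, the members over 1 lower numbered 4 or 3, and those over 1 higher 0. Over all contigs the shares after these scalings, in that order, were 0.806% and 0.706% lower, and 1.31% higher under both. Among the 27 were the brightest members in the pool, contig_18434 (-0.87 ± 0.31; limma, adjusted p = 0.354) and contig_18206 (-0.75 ± 0.35; limma, adjusted p = 0.505), and one of the dimmest, contig_17636 (-1.08 ± 0.38; limma, adjusted p = 0.354). contig_11347, the third brightest, was not (-0.15 ± 0.25; limma, adjusted p = 0.885).

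With arrays as deposited, the 40 members with the higher mean in Gironde came no closer than an unadjusted p of 0.0576 in limma. That was contig_26676, whose Certes mean of -1.53 ± 0.16 (SD, n = 8) lay below its Gironde mean of -1.18 ± 0.41 (SD, n = 7) by 0.36, with a 95% interval from -0.01 to 0.72 (limma, adjusted p = 0.525). contig_2378, contig_3333 and contig_7345 followed, with differences of 0.39, 0.23 and 0.27. For 122 of the 199 members (61.3%) the 95% interval of the site difference lay within 1 either way, and over all contigs this held for 72.0%. These intervals are not adjusted for the number of contigs.

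As a set the members lay slightly lower in Gironde as deposited, and this turned with the array scale. The mean was lower in Gironde for 159 of the 199 (79.9%; 53.6% of all contigs), with a median difference of -0.23, against -0.02 over all contigs. With arrays scaled to an equal SD, 87 of the 199 were lower and the median difference was 0.06. With an equal median absolute deviation, 81 were lower and it was 0.08. Of the contigs above the pool, 22.6% were lower in Gironde, with a median difference of 0.19, so in both sets the Gironde mean mostly lay farther from the pool. Both sets share the pool and the arrays. Array widths differed, with SDs over all contigs averaging 1.72 ± 0.16 (SD, n = 8) in Certes and 1.96 ± 0.14 (SD, n = 7) in Gironde, and whether this difference in width is technical or belongs to the gonads cannot be told apart here.

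Array by array, the mean over members lay between -2.37 and -1.76 in Certes and between -2.89 and -2.22 in Gironde, and the sites overlapped. Certes 2 stood highest and Gironde 2 lowest. As deposited, most members were lower in Gironde at each level of the pool signal. These were 70 of the 77 in the brightest 25% (median difference -0.33), 58 of the 81 in the middle (-0.15) and 31 of the 41 in the dimmest 25% (-0.23). By pool signal, such counts are given here neither for all contigs nor for scaled arrays. Also as deposited, the median difference was -0.71 over the 6 members between -8 and -6 and -0.17 over the 127 between -2 and -1. After scaling the arrays to an equal SD, of the 8 lowest members contig_9635, contig_2266, contig_9866, contig_16406 and contig_20211 had the higher mean in Gironde, by 0.21 to 0.53. The samples carry separate codes but are not said in words to be separate eels, so the p-values cover only the spread among the samples, which may be technical.

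**Figure D5:**
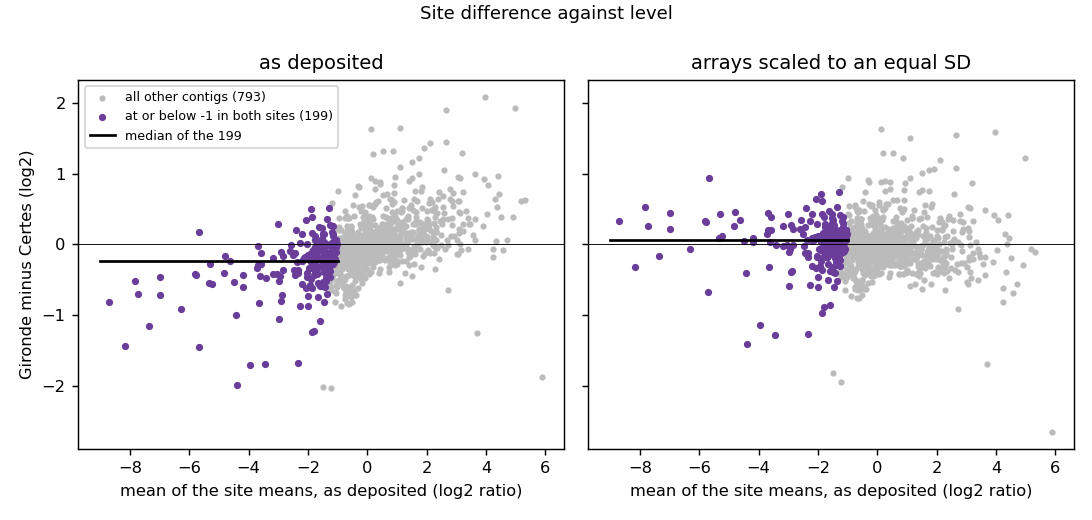
Gironde minus Certes on the log2 scale (vertical axes) against the mean of the site means (horizontal axes) for the 199 low contigs (purple) and the other 793 (grey), as deposited (left) and after scaling the arrays to an equal SD (right). The black line is the median of the 199, at -0.23 as deposited and at 0.06 after scaling.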

How the data were processed

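Gonad cDNA of 15 samples (Cy3) was hybridised with 1 reference pool (Cy5). The authors deposited log2 ratios, 1 per contig and array; every array's median was 0, so they had been centred. For image analysis, background correction and normalization, methods were not given in the sources used here. The log2 base and direction are inferred. A second deposited table holds scanner intensity values, foreground and background, of 2976 spots on 15 slides. Its slide numbers match no sample label, so 1 column gave the brightness in the pool. This was the reference foreground on slide 1 (median of 3 spots per contig), and the other 59 columns gave no printed value. A pool signal over background from the reference columns of all slides was computed first and then dropped. It gave no printed value of its own and is used for 2 remarks in words, on a contig near background and on spots near the scanner limit. The first remark is why counts without contig_9226 are also given.

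Sites were compared with limma 3.58.1 in R 4.3.3 (lmFit, eBayes, no covariate) on all 992 contigs and 15 arrays, with Benjamini-Hochberg adjustment and a threshold of 0.05, checked on simulated data. Other values came from Python 3.11.15 (pandas 2.3.3, numpy 2.4.6). Arrays are numbered in accession order, as names only. Alternatives were array scaling, unequal variances, weights per array, robust settings with a trend, contigs with a value on all arrays and leaving out each array. Precision is limited by the number of arrays. The members and lists were chosen with earlier results of these data known. Named contigs are the lowest by level, those with the smallest p in each direction, the most and least variable, those nearest the threshold, the closest pairs, those with 2 or more empty cells and the brightest and dimmest in the pool. Markers of cell types could not be checked without gene names.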

Additional observations from a re-analysis of the deposited data

Results flagged for a closer look

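Of 93 sets of values (1 contig in 1 site, or 1 summary over the members), 4 held a single array that stood apart from the rest of their site, where chance marks about 1 in 20 such sets. contig_39488 was at -0.39 on Certes 8, while the other Certes arrays lay between -3.17 and -1.99. contig_18206 was at -2.19 on Certes 6, below the other Certes arrays at -1.36 to -0.85. contig_16406 was at -8.41 on Gironde 3, below the other Gironde arrays at -7.36 to -6.87. contig_31505 was at -1.59 on Certes 2, below the other Certes arrays at -1.46 to -1.35, a gap on the scale of the steadiest contigs. No array's mean or SD over the members stood apart in this way.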

How the results depend on the processing

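No paired analysis was possible because the arrays carry no replicate numbers shared between the sites. The rule gave 110 contigs with a threshold of -1.5 and 311 with -0.5, and between 181 and 204 with site medians, scaled arrays or complete contigs, and 193 to 203 without 1 array. The count of 1 member at an adjusted p of 0.05 fell to 0 after scaling to equal median absolute deviations or equal SDs, with unequal variances and, an alternative added after seeing the data, over the members among the brightest 25% of contigs in the pool, which leaves out contig_31845. Without 1 array it was 0 to 1. It was 0 without Certes 1, 2, 4, 5, 6 or 8 or Gironde 1, 3, 5 or 6. The 27 members at the unadjusted threshold became 10 and 12 with equal median absolute deviations and SDs, 16 with unequal variances, 16 over the members with the brighter pool, a smaller set, and 17 to 37 without 1 array. The median site difference of -0.23 turned to 0.0782 under equal median absolute deviations, to 0.0568 under equal SDs and to 0.0430 under equal SDs over the members (added after seeing the data), and was -0.28 to -0.18 without 1 array. The ratio of the median SDs (1.17) was 1.06 to 1.21 over all settings with every array and 1.12 to 1.23 without 1 array. The median correlation of 0.138 became 0.0776 and 0.0112 with equal median absolute deviations and SDs, -0.00638 with each array's mean over the members taken out, a value near 0 by construction, 0.257 over members with the brighter pool, and was 0.115 to 0.157 without 1 array.

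The sign of the site difference turned for these members under equal median absolute deviations and equal SDs, in that order, with no adjusted p of limma under 0.53: contig_9635 0.38 and 0.33, contig_2266 0.59 and 0.53, contig_9866 0.28 and 0.27, contig_16406 0.24 and 0.21, contig_20211 0.50 and 0.45, contig_4710 0.10 and 0.11, contig_10339 0.0870 and 0.0852, contig_30553 0.0381 and 0.0379, contig_22142 0.31 and 0.25, contig_8217 0.0731 and 0.0197, contig_21730 0.0965 and 0.12, and contig_11347 0.118 and 0.119. That of contig_9476 was -0.0984 with array weights. Without 1 array, the differences of contig_9476 (-0.51 to 0.64), contig_4710 (-0.80 to 0.44), contig_25243 (-0.95 to 0.0787), contig_13098 (-0.34 to 0.0264), contig_16903 (-0.0322 to 0.25), contig_21730 (-0.26 to 0.27) and contig_11347 (-0.29 to 0.000229) took both signs. The cause was not tested.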
